A study of Homo sapiens with 4 samples.

Results

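The genes described here encode 10 mucins and carcinoembryonic antigen-related cell adhesion molecules (CEACAMs), out of 20037 protein-coding genes in the gene table. They were taken by name as 3 groups. The membrane mucins were MUC1, MUC4 and MUC13, the gel-forming mucins were MUC2, MUC5AC, MUC5B and MUC6, and the CEACAM genes were CEACAM1, CEACAM5 and CEACAM6. For each gene, every deposited H3K14ac peak (a region below) that touched the gene's span extended by 10 kb on both sides (its window) was collected. The windows held 15 of the 39876 regions of control cells and 31 of the 28187 regions of NIT2 knockdown cells.

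H3K14ac, acetylation of lysine 14 of histone H3, was mapped by chromatin immunoprecipitation and sequencing (ChIP-seq) in MKN45, an established human gastric cancer cell line grown in DMEM with fetal bovine serum. The control cells carried the hairpin shNT. The knockdown cells carried shNIT2, which targets NIT2, an enzyme that acts on glutamine-derived amides. Each condition had 1 H3K14ac library and 1 input library, and only the H3K14ac peak lists were used. The labels state neither whether a hairpin line came from 1 clone or a pool nor how far NIT2 was lowered, so no value here checks the knockdown. With 1 library per condition, no difference between the lists has a replicate check and none was tested.

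Membrane mucins are heavily glycosylated proteins anchored in the apical surface of epithelial cells, where they form a barrier and, in part, signal through their cytoplasmic tails. Gel-forming mucins are secreted and assemble into mucus. MUC5AC and MUC6 are the typical gel mucins of the stomach, MUC2 that of intestinal goblet cells, and MUC5B that of airway and salivary glands. CEACAM1 is a transmembrane adhesion and co-inhibitory receptor, while CEACAM5 (the tumour marker CEA) and CEACAM6 are held in the membrane by a lipid anchor. H3K14ac is generally found at active promoters and enhancers.

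The lists differed in the number of fragments behind their regions. A whole-number fragment pileup at the summit and the local background were recovered from the deposited fold and p-value for 99.96% of the regions in each list. The median pileup was 6 fragments in shNT and 22 in shNIT2, and the lowest background, the genome-wide floor, was 0.278 and 2.48 fragments, a ratio of 8.93. Total reads per library are unknown, so the ratio of the floors stands in below for a ratio of depths. Folds are the authors' values and describe regions within a list, and ranks are by q. As a check of the cell label, all 6 epithelial marker genes (EPCAM, CDH1, KRT8, KRT18, KRT19 and CLDN4) had regions in both lists, and all 4 liver and muscle markers (ALB, APOA2, MYOD1 and CKM) had none in either. Over all genes, 54.9% had a region in shNIT2 and 38.6% in shNT. All 3 immune markers had a region in shNIT2 and 2 did in shNT. Of 3 fibroblast markers, 1 had a region in each list (PDGFRB in shNIT2 and COL1A1 in shNT), and of 2 endothelial markers PECAM1 had one in both, so a region in such a window does not by itself identify a cell type.

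The promoters around which the start-site regions lay are shown first, as the upstream 250 bases of 5 genes. Those of MUC1, CEACAM1 and CEACAM5 lay wholly inside a shNIT2 region, while those of CEACAM6 and MUC13 lay in a gap between a region on each side of the start site. The sequences are RefSeq's on GRCh38.p14 (the chromosomes of hg38), written 5′ to 3′ on the gene's strand and ending at the base before the start site. Capitals mark exact matches on either strand to any of 6 motifs. One is GGGCGG, the GC box that Sp1-type factors can bind, and another TATAAA, the core of the TATA box. The E box was searched as CACGTG and the AP-1 motif as TGANTCA. The STAT motif was searched as TTCNNNGAA and that of KLF factors as CACCC. The promoter table held 7 of the 10 genes, without MUC5AC, MUC5B and MUC6.
MUC1 upstream, chr1:155192916-155193165, minus strand: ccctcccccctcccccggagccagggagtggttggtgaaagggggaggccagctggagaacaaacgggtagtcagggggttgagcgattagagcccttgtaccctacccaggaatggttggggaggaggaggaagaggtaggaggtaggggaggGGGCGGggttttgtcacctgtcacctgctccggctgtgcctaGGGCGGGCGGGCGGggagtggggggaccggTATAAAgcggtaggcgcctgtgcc
CEACAM1 upstream, chr19:42528482-42528731, minus strand: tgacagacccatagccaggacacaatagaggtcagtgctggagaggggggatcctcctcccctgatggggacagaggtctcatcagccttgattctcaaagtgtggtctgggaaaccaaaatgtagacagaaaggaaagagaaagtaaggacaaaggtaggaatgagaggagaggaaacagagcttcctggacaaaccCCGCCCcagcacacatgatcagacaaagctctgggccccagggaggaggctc
CEACAM5 upstream, chr19:41708376-41708625, plus strand: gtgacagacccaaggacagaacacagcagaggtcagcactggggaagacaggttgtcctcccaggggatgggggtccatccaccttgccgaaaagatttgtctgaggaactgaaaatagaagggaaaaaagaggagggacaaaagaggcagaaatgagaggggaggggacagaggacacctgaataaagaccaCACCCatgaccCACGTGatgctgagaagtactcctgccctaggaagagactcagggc
CEACAM6 upstream, chr19:41755280-41755529, plus strand: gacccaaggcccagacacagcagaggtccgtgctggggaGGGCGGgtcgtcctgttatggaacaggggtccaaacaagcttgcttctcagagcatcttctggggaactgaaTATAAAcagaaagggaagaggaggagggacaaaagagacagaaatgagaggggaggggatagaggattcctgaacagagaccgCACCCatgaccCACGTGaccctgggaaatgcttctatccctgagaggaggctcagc
MUC13 upstream, chr3:124934752-124935001, minus strand: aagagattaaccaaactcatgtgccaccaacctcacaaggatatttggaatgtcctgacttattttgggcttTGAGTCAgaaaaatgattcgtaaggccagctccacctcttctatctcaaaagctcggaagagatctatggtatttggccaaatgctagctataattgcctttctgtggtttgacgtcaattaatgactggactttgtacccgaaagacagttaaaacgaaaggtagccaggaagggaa

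In these windows, MUC1 had 4 GC boxes, of which 3 overlapped one another, and a TATA box starting 24 bases before the start site. Over 13820 protein-coding promoters, 56.02% held a GC box, 57.62% a KLF match and 9.63% a TATA box within the same upstream length. CEACAM5 and CEACAM6 shared an 18-base stretch, CACCCatgaccCACGTGa, which joins a KLF match to an E box. It was found in these 2 promoters alone among the 13820, and an E box of any context in 7.87% of them. The stretch was taken from these 2 promoters and is longer than the E box. Its absence elsewhere is therefore no test, and the 2 values are not like measures. Aligned end to end, the upstream bases of CEACAM5 and CEACAM6 were 73.6% identical, CEACAM6 and CEACAM1 67.6%, and CEACAM5 and CEACAM1 63.5%. The other 18 pairs among the 7 promoters lay between 40.2% and 48.9%. In the CEACAM1 promoter the only match was 1 GC box, and in that of MUC13 1 AP-1 match, a motif held by 5.04% of promoters. A match describes letters in the reference and is not a measured binding site.

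Regions were found at 8 of the 10 genes in shNIT2 and at 6 in shNT. Over all protein-coding genes, 54.9% had a region in the same kind of window in shNIT2 and 38.6% in shNT. The same 6 genes, the 3 membrane mucins and the 3 CEACAM genes, had a region in both lists, against 27.4% of all genes. MUC2 and MUC5AC had regions in shNIT2 alone (27.5% of all genes), MUC5B and MUC6 had none in either list (33.9%), and no member had one in shNT alone (11.2%). With shNIT2 scaled to the depth of shNT, the order turned to 5 genes in shNIT2 (20.6% of all genes) and 6 in shNT. The shNT count was 2 with no extension of the span (26.8%). It was 3 with an extension of 1 kb (28.5%), at a −log10 q of at least 5 (8.13%) and among the 10000 strongest regions (4.31%). The windows of the 10 genes had a median of 46603 bp, near the 44110 bp over all genes.

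**Figure D1:**
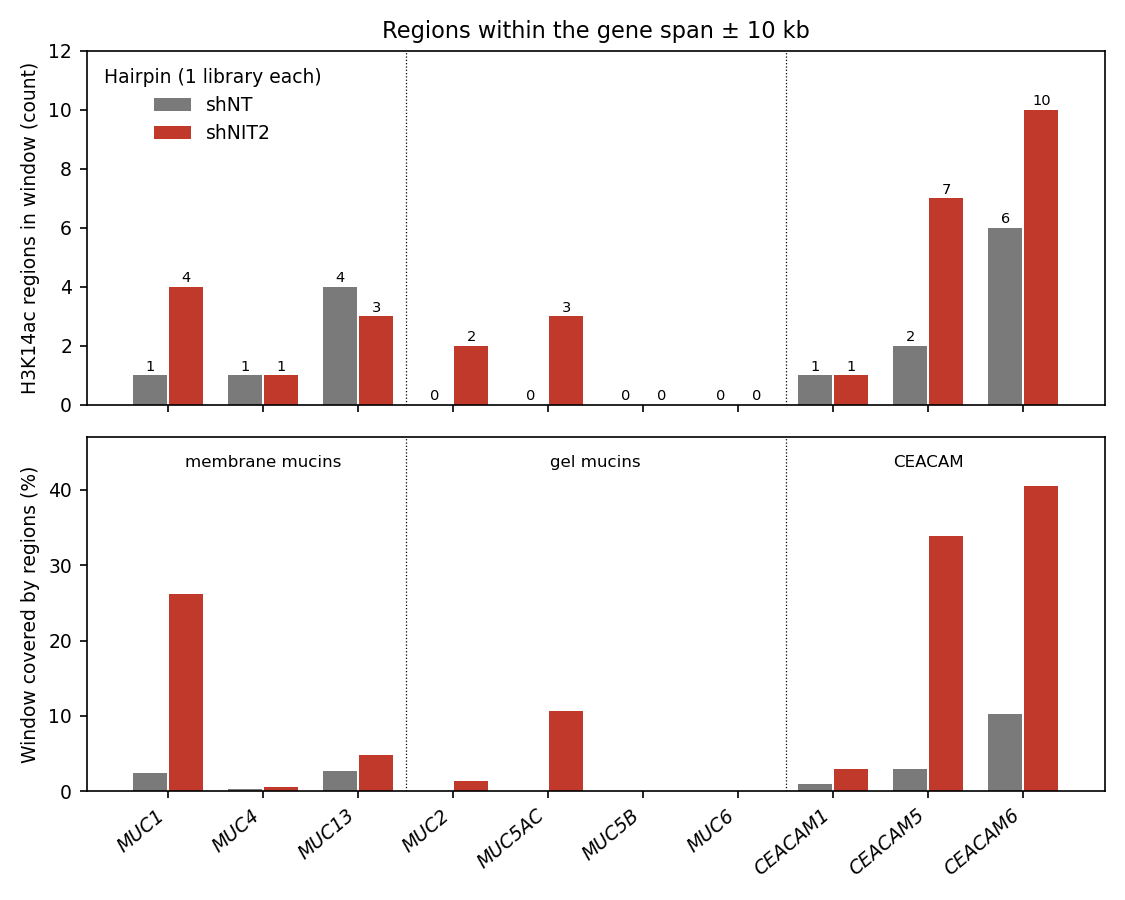
Number of H3K14ac regions (upper panel) and percent of the window covered by them (lower panel) for each of the 10 genes, in shNT (grey) and shNIT2 (red), 1 library each, so there are no error bars. CEACAM6 and CEACAM5 stood first in shNIT2 with 10 and 7 regions, and MUC5B and MUC6 had none.

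By the share of the window under regions, the genes fell in a wide order. In shNIT2, regions covered 40.5% of the CEACAM6 window, 33.9% at CEACAM5, 26.2% at MUC1 and 10.6% at MUC5AC. The other covered windows were MUC13 at 4.855%, CEACAM1 at 2.89%, MUC2 at 1.33% and MUC4 at 0.606%, where the mean over all genes was 1.91% and the median 0.458%. In shNT, coverage was 10.2% at CEACAM6, 2.94% at CEACAM5, 2.64% at MUC13, 2.40% at MUC1, 0.911% at CEACAM1 and 0.339% at MUC4, against a mean of 0.360% over all genes. Having no replicate, neighbours in either order cannot be separated. Covered length moves with how much was called in each library, so the percentages rank genes within a list.

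CEACAM6 (chromosome 19, 41755530 to 41772211, plus strand) had the strongest shNIT2 regions of the 10 genes, and they lay past its 3′ end. The shNIT2 region from 41774826 to 41781822 was 6997 bp wide, stood 29.0-fold over background on 190 fragments (−log10 q 209) and ranked 38 of 28187 by q. Only 15 shNIT2 regions, itself included, were at least as wide. The region next to it, from 41772856 to 41774486 (1631 bp, 24.8-fold, 166 fragments), ranked 62. In shNT the same stretch held all 6 of the CEACAM6 regions. The first 2 of them (41772840 to 41773346 on 10 fragments and 41773803 to 41774197 on 6) overlapped the narrower shNIT2 region. The other 4, with 12, 8, 24 and 28 fragments, lay within the wider one. The strongest shNT region, 41778274 to 41779251 (19.3-fold), ranked 806 of 39876, with 41777178 to 41777992 (17.7-fold) at rank 1008. Both lists thus placed their best CEACAM6 regions in the same stretch within 10 kb downstream of the gene. The nearest start site in the promoter table to any of these regions, that of LOC112268252, lay 13479 bp away inside CEACAM6.

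Around the CEACAM6 start site, shNIT2 had regions on either side but not over it. One ended 312 bp before the start (41754356 to 41755218, 4.18-fold, 17 fragments) and the next began 114 bp after it (41755644 to 41756396, 4.76-fold, 22 fragments). A further 5 regions lay upstream, led by 41752971 to 41754051 (7.92-fold, 32 fragments) and 41750314 to 41751299 (6.08-fold, 40 fragments). The last lay 1784 bp inside the gene on 17 fragments, over the long non-coding RNA gene LOC112268252. shNT had no region upstream of or inside CEACAM6 within the window. At least 10 regions in a window, as CEACAM6 had in shNIT2, were found at 255 genes (1.27%), and at least 6 in shNT at 219 genes (1.09%).

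CEACAM5 (chromosome 19, 41708626 to 41730519, plus strand) showed a wide region over its start and stronger ones downstream. The start region in shNIT2, 41707825 to 41713255, was 5431 bp wide (5.61-fold, 38 fragments), and 49 regions of the list were at least that wide. Downstream, the region 41731636 to 41734533 reached 17.9-fold on 101 fragments and ranked 299, and 41735089 to 41739587 reached 11.2-fold on 71 fragments and ranked 1035. A farther downstream region, 41740194 to 41741026, reached 8.67-fold on 49 fragments, and 3 small upstream regions had 12 to 18 fragments. shNT had 2 regions at CEACAM5, both downstream and both inside shNIT2 regions. The stronger, 41733328 to 41734203, was the strongest shNT region of the 10 genes (21.3-fold, 28 fragments, rank 684). The other, 41738079 to 41738432, had 10 fragments.

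Coverage of the CEACAM5 and CEACAM6 neighbourhood was highest in the stretches between these genes and between CEACAM6 and CEACAM3. The first stretch lies downstream of CEACAM5 but also upstream of CEACAM6, and it holds the upstream shNIT2 regions of CEACAM6 as well. In shNIT2, regions covered 60.0% of the 25010 bp between CEACAM5 and CEACAM6 and 57.3% of the 24375 bp from CEACAM6 to CEACAM3. Within the genes they covered 21.1% of CEACAM5, all of it under the start region, and 6.43% of CEACAM6. The 20355 bp before CEACAM5, up to CEACAM7, were covered to 9.02%, less than CEACAM5 itself. In shNT, 4.92% of the stretch between the genes and 17.8% of the one after CEACAM6 were covered, and neither gene body nor the stretch before CEACAM5 held a region.

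**Figure D2:**
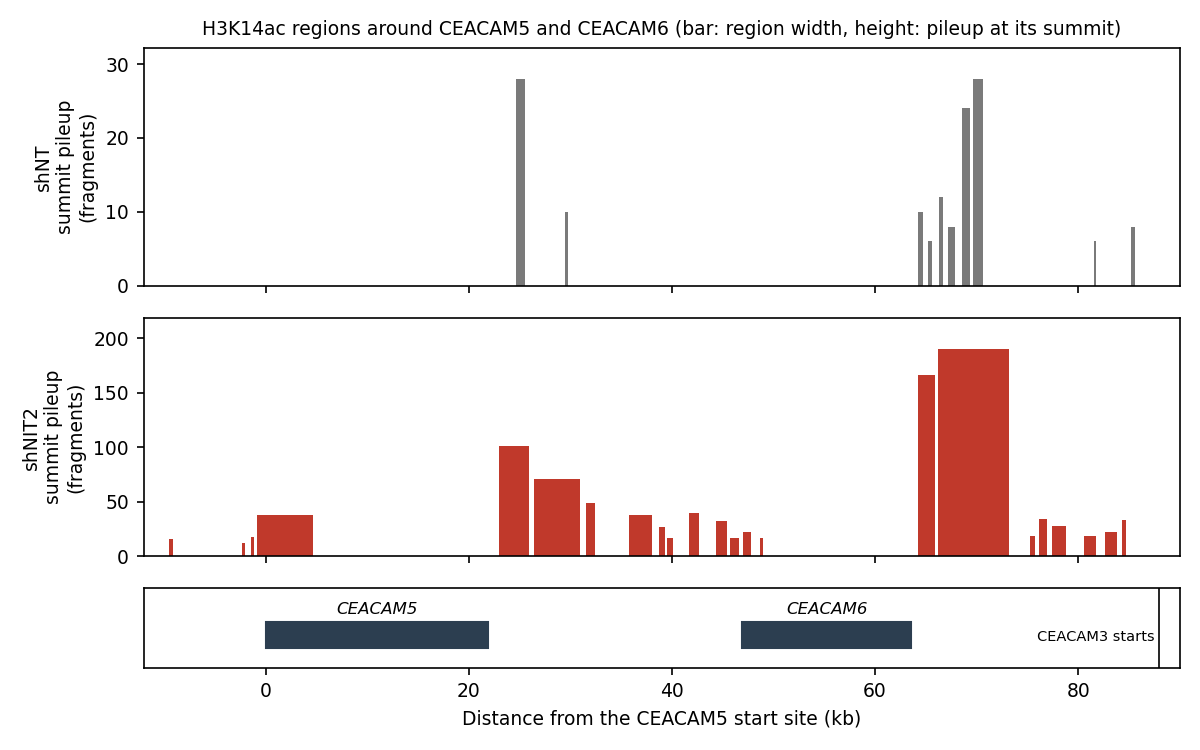
Regions of shNT (top) and shNIT2 (middle) by distance from the CEACAM5 start site in kb; each bar spans a region and its height is the fragment pileup at the summit, on separate scales. The tallest bars of both lists stand past the 3′ ends of CEACAM5 and CEACAM6, reaching 28 fragments in shNT and 190 in shNIT2.

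CEACAM1 (chromosome 19, 42507306 to 42528481, minus strand) had 1 region in each list, and the 2 did not overlap. In shNIT2 the region 42528063 to 42529254 covered the start site (5.74-fold, 35 fragments). In shNT the region 42531788 to 42532162 lay 3307 bp upstream on 6 fragments (4.86-fold). Both overlapped LIPE-AS1, a long non-coding RNA gene that spans the whole locus. A region over an annotated start site was rare in general, at 5.48% of 13820 genes in shNIT2 and 0.116% in shNT. Within 1 kb of the start these shares were 37.7% and 5.66%. Over the start site stood MUC1, CEACAM1 and CEACAM5 in shNIT2, and none of the 7 genes with an annotated start in shNT.

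MUC1 (chromosome 1, 155185824 to 155192915, minus strand) had the strongest regions among the 7 mucins of the 3 groups. The shNIT2 region 155191937 to 155194858 covered the start site and was 2922 bp wide (17.2-fold, 71 fragments, rank 598), with its summit 843 bp upstream. The 1 shNT region, 155194076 to 155194725 (16.4-fold, 20 fragments, rank 1214), lay inside it, 1161 bp upstream of the start. It overlapped no annotated gene and lay nearer, at 272 bp, to the start of THBS3-AS1, a long non-coding RNA gene read away from MUC1. Whether these regions belong to MUC1 or to THBS3-AS1 cannot be told apart from peaks. shNIT2 also had a region of 2865 bp over the last part of MUC1 (155185681 to 155188545, 5.27-fold, 48 fragments). Its background was 3.34 times the floor, the highest of the 31 regions. The other 2 shNIT2 regions overlapped TRIM46 rather than MUC1, with 23 and 12 fragments.

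MUC13 (chromosome 3, 124905442 to 124934751, minus strand) had a region near its start in both lists. The shNIT2 region 124933671 to 124934667 (5.79-fold, 38 fragments) began 84 bp inside the gene, and a second, 124935106 to 124935672 (3.93-fold, 33 fragments), lay 355 bp upstream. In shNT the region 124934090 to 124934550 (5.60-fold, 8 fragments) overlapped the first of them, with the summits 156 bp apart. The remaining regions in this window, 3 in shNT and 1 in shNIT2, lay within ITGB5, the gene of an integrin subunit. The strongest, at 124900552 to 124901381 in shNIT2 (6.60-fold, 32 fragments) and 124901020 to 124901357 in shNT (7 fragments), lay beside the ITGB5 start site at 124901418. The MUC13 window thus held 4 shNT regions of which 1 touched MUC13 itself.

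MUC4 (chromosome 3, 195746771 to 195811929, minus strand) had 1 weak region in each list, both inside the gene. The shNIT2 region 195805058 to 195805573 ranked 27900 of 28187 (2.56-fold, 13 fragments), 6356 bp from the start site. The shNT region 195796155 to 195796443 had 5 fragments and lay 15486 bp from the start. They did not overlap, and neither list had a region at the start of this gene.

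**Figure D3:**
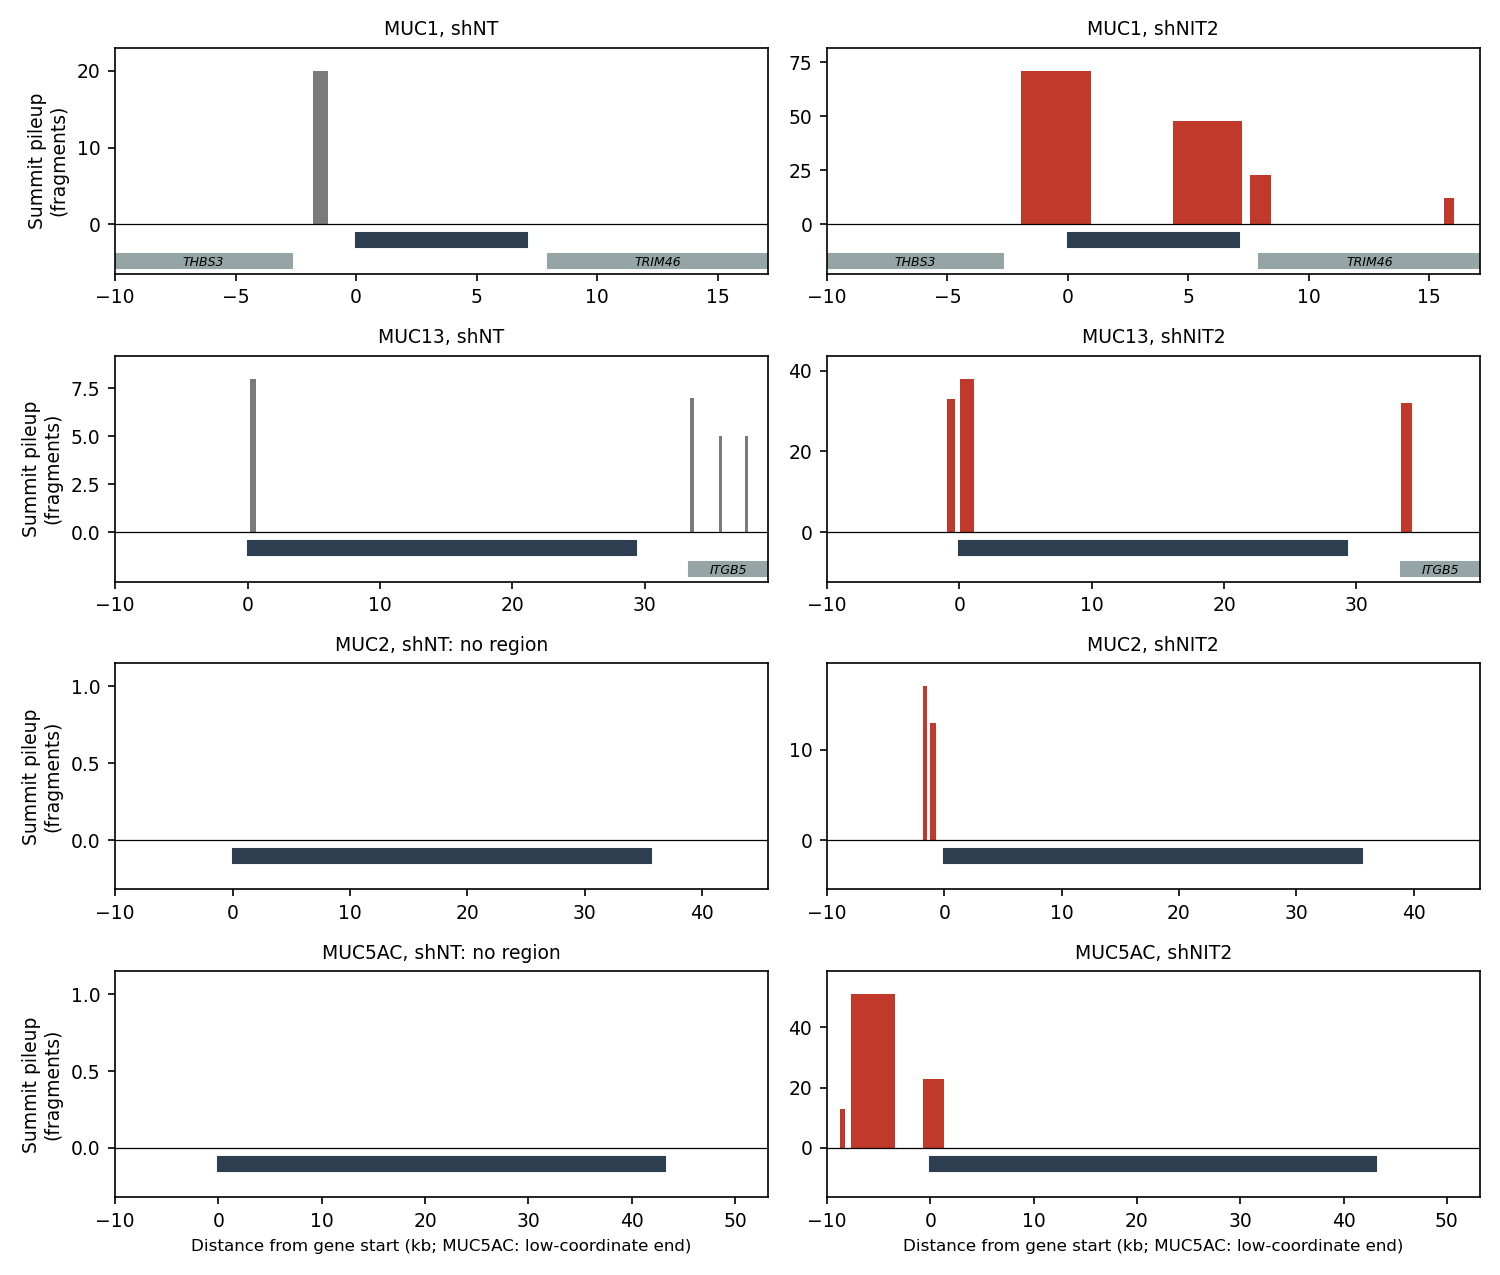
Regions at MUC1, MUC13, MUC2 and MUC5AC in shNT (left) and shNIT2 (right) by distance from the gene start in kb; bars span regions, heights are summit pileups on separate scales, dark boxes are the genes and grey boxes protein-coding neighbours. MUC1 carried 71 fragments at its start in shNIT2, and the shNT panels of MUC2 and MUC5AC are empty.

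The gel mucins of chromosome 11 had regions in shNIT2 at MUC5AC and MUC2 only, and none in shNT. MUC5AC (1157953 to 1201138) is not in the strand table and is known to be read toward higher coordinates. Its strongest region, 1150319 to 1154571, lay 3382 bp before the low-coordinate end (14.9-fold, 51 fragments, rank 1218), and only 139 regions of the list were at least as wide. A region of 2069 bp covered that end itself (1157222 to 1159290, 6.90-fold, 23 fragments), and another, on 13 fragments, lay 8290 bp before it. MUC2 (1074874 to 1110508, plus strand) had 2 upstream regions. The nearer, 1073703 to 1074134, ended 740 bp before the start on 13 fragments (3.31-fold). The other was 1073083 to 1073389 (5.17-fold, 17 fragments). Both lay nearer to the start of the long non-coding RNA gene LOC107987157, which is read away from MUC2, at 269 and 45 bp.

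MUC6 (1012823 to 1036718) and MUC5B (1223066 to 1262172) had no region in their windows. The nearest shNIT2 regions were 23420 bp from MUC6 and 47825 bp from MUC5B, and the nearest shNT regions 131413 bp and 229762 bp. Over the 269350 bp from the MUC6 window to that of MUC5B, shNIT2 had 7 regions. These were the 5 at MUC2 and MUC5AC and 2 between MUC6 and MUC2, and shNT had 0. A peak list does not show signal under its threshold, so an absent region is not an absent mark.

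Set side by side, the groups differed in the number of their regions and in their widest region. In shNIT2 the 3 CEACAM genes had 18 regions (25.2% of their windows covered), the 3 membrane mucins 8 (6.20%) and the 4 gel mucins 5 (3.36%). In shNT the counts were 9 (4.47%), 6 (1.39%) and 0. The widest shNIT2 region was 6997 bp in the CEACAM windows, 2922 bp in those of the membrane mucins and 4253 bp in those of the gel mucins. In the same order, the median widths in shNIT2 were 924.5, 856.5 and 432 bp, and the median folds 5.25, 5.53 and 5.17. Regions among the top 1% of the shNIT2 list by q were the 2 downstream of CEACAM6. The top 10% held 5 CEACAM, 1 membrane mucin and 1 gel mucin region. In shNT the top 10% held 3 CEACAM regions and 1 at MUC1. Within the CEACAM group, 14 of the 18 shNIT2 and 8 of the 9 shNT regions overlapped no gene of any kind. Of the membrane mucin regions, 7 of 8 in shNIT2 and 5 of 6 in shNT overlapped a protein-coding gene. Some of these lay only over the neighbours TRIM46 or ITGB5. Those touching the mucin genes themselves numbered 4 in shNIT2 and 2 in shNT. The share of all regions that overlap a gene was not computed, so these counts have no background beside them. No difference in place between the groups is read from them. Most of the CEACAM total came from CEACAM5 and CEACAM6, which are neighbours, and CEACAM1 had 1 region per list.

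**Figure D4:**
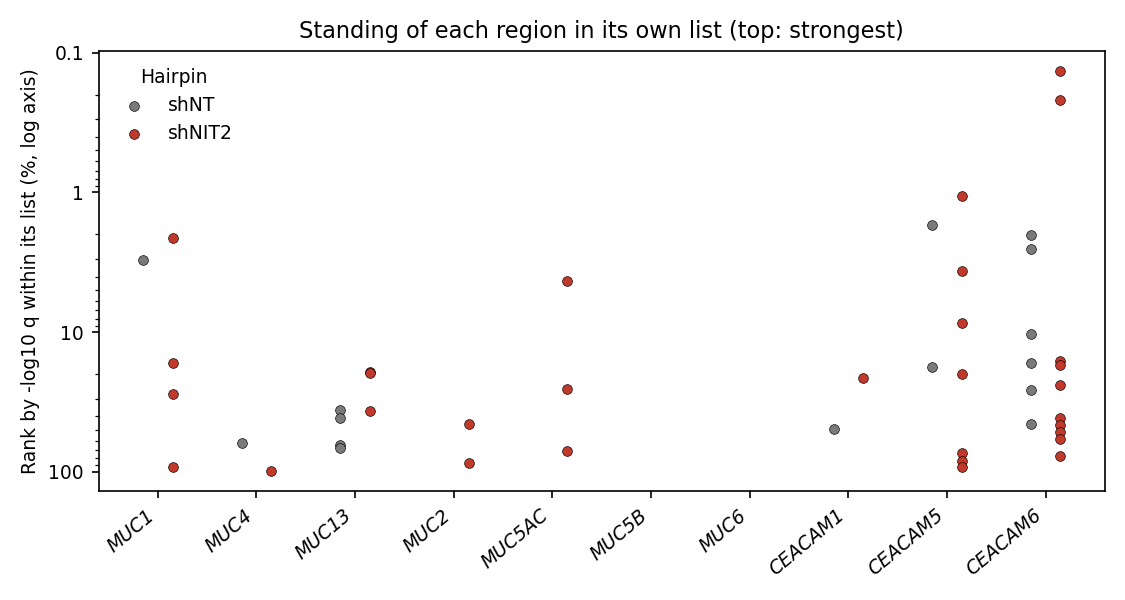
Rank of each region by −log10 q as a percent of its own list (log axis, strongest at the top) for the 10 genes, shNT in grey and shNIT2 in red. The 2 highest points, at ranks 38 and 62 of the shNIT2 list, belong to CEACAM6; the region of MUC4 in shNIT2 lies at 99.0%.

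Regions of the 2 lists overlapped at 4 of the genes. Of the 15 shNT regions, 11 overlapped a shNIT2 region, and of the 31 shNIT2 regions, 7 overlapped a shNT region. Over the whole lists, 3613 of 39876 shNT regions and 3300 of 28187 shNIT2 regions overlapped one of the other list. Of the 11 shNT regions, 6 lay in the stretch behind CEACAM6, over 2 shNIT2 regions. Over all genes, 11.5% had such a shared region in the window, as did MUC1, MUC13, CEACAM5 and CEACAM6. In the 11 overlapping pairs the shNIT2 pileup was 3.55 to 27.7 times that of shNT, with a median of 7.10. These pairs rest on 7 shNIT2 regions, so a region with several partners counts more than once. Over all 3626 pairs of the lists the median was 5.78 (quartiles 4 and 8.82). The pileups are not corrected for depth, and the ratio of the floors was 8.93. At the strongest shNT region of each gene, the pileup ratio was 3.55 at MUC1, 3.61 at CEACAM5, 4.75 at MUC13 and 6.79 at CEACAM6, each below 8.93. The upper quartile over all pairs, 8.82, was below it too, and choosing by shNT strength tends to lower the ratio. Nothing particular to these genes is therefore read from these values. The 4 pairs of CEACAM6 with ratios of 15.8 to 27.7 held shNT regions of 6 to 12 fragments, with the summits of a pair 94 to 2362 bp apart, and 94 bp apart in the pair at 27.7.

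When pileup and background of shNIT2 were divided by 8.93, the ratio of the floors, 13 of the 31 regions still reached the lowest −log10 p of the shNT list, 3.37. All 7 shared regions were among the 13, and none of the other 18 was shared. Over the whole list, 30.97% of the 6093 regions that reached it and 6.395% of the 22094 that did not were shared. With this scaling the order of the counts turned, to 8 CEACAM regions in shNIT2 against 9 in shNT and 4 membrane mucin regions against 6. The 6 regions that reached it without a shNT region beneath were at MUC1 (over its last part), CEACAM5 (over the start, and the farthest downstream), CEACAM6 (2 upstream) and MUC5AC. The MUC5AC region had the highest scaled −log10 p of these 6, at 7.29, followed by the farthest downstream region of CEACAM5 at 5.23. The other 4 lay between 3.44 and 3.97. The regions of MUC2 stayed below that level at 2.43 and 1.69, and the region over the CEACAM1 start lay just under it at 3.36.

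Of 69 other genes of mucus and CEACAM biology, 30 build mucin O-glycans. Of these enzymes, 21 (70%) had a region in shNIT2 and 15 (50%) in shNT, against 54.9% and 38.6% of all genes (11 in both, 10 in shNIT2 alone, 4 in shNT alone, 5 in neither). Their windows were longer, with a median of 87166 bp against 44110 bp over all genes, and the part of this length in the counts was not tested. The highest by q in shNIT2 were B3GNT3, which extends core structures (13.8-fold, 92 fragments), GCNT3, which makes branched cores (14.5-fold, 85 fragments), and ST6GALNAC1, the sialyl-Tn synthase (12.2-fold, 85 fragments). Each of these also had shNT regions, the best on 7, 4 and 9 fragments. GALNT12, GALNT13, GALNT15 and GALNT17, which start O-glycans, had regions in shNT alone, on 4 to 11 fragments at best.

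Of 16 other mucins and mucin-like genes, 8 (50%) had a region in each list, 4 of them in both (25%, against 27.4% of all genes). Beside MUC20, the membrane mucin gene next to MUC4, the region 195715436 to 195717778 in shNIT2 stood on 186 fragments and overlapped no protein-coding gene. The shNT region there, 195716400 to 195716827, had 22 fragments. The local background at this site was 7.98 times the floor in shNIT2 and 4.77 times in shNT, and its part in these pileups was not tested. The region 101016760 to 101017591 in shNIT2 (14.3-fold, 61 fragments), over the membrane mucin gene MUC12, also fell in the window of its neighbour MUC17, so it was the best one of both. EMCN, MUC15, MUC19 and PODXL had regions in shNT alone, on 3 or 4 fragments at best.

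Of 9 other CEACAM genes, 4 had a region in shNIT2 and 3 in shNT (44.4% and 33.3%, against 54.9% and 38.6% of all genes). Their windows were shorter, with a median of 34968 bp against 44110 bp over all genes, and the part of this length was not tested. With so few genes, no difference from all genes is read from these shares. Genes with a region were CEACAM18 (11.8-fold, 67 fragments), CEACAM16 (7.91-fold, 54 fragments) and CEACAM3 (6.77-fold, 28 fragments) in both lists and CEACAM19 in shNIT2 alone. The best shNIT2 region of each of these 4 genes lay outside protein-coding genes, and that of CEACAM3 lay between it and CEACAM6. That of CEACAM19, 44693622 to 44694753, also fell in the window of CEACAM16. Of 14 genes of mucus packaging and goblet or foveolar cells, 6 had a region in shNIT2 and 5 in shNT (42.9% and 35.7%). Their windows were also shorter, with a median of 35389.5 bp, and with so few genes no difference from all genes is read here either. The strongest shNIT2 region was in the window of FCGBP, a mucus protein (16.0-fold, 86 fragments). It began at 39944389, near the 10 kb limit, as the high-coordinate end of the gene is at 39934634. Next were regions at AGR2, a disulfide isomerase needed for mucin folding (6.77-fold, 76 fragments), and at the trefoil factor gene TFF1 (8.37-fold, 33 fragments). TFF1, which is typically expressed with MUC5AC in the stomach, had none in shNT, and TFF2, TFF3, GKN1 and GKN2 had none in either list. SPDEF, a goblet cell transcription factor, had a region in shNT alone on 4 fragments.

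**Figure D5:**
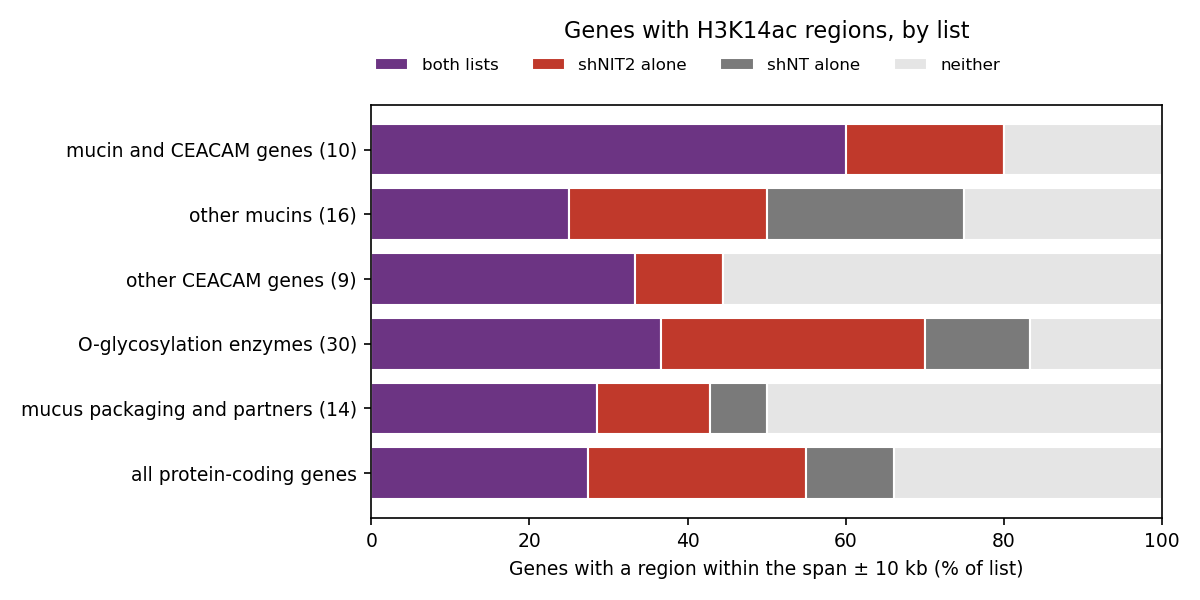
Percent of each gene list with a region within the span extended by 10 kb in both lists, in shNIT2 alone, in shNT alone or in neither, with the number of genes in brackets, beside all 20037 protein-coding genes. The 10 mucin and CEACAM genes had 6 in both lists and 2 in shNIT2 alone; among the other lists only the O-glycosylation enzymes had more than 54.9% with a region in shNIT2.

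The genes whose pattern was nearest were sought for the strongest gene of each group over 4 values, the coverage and the percentile of the best q in each of the 2 lists. For MUC1 they were DDAH2 (distance 1.89), ANKRD40 (2.52) and its neighbour TRIM46 (2.53), whose window shares regions with that of MUC1. For MUC5AC they were BICDL2, BZW1 and CIRBP at distances of 0.139 to 0.198, all without a region in shNT. For CEACAM6 they were CYP1B1 (5.57), FLOT1 (5.94) and LIF (6.27).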

How the data were processed

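Peak lists of the 2 H3K14ac libraries were used, and the 2 input libraries were not analysed here. Per the submitters' processing notes, the tools were Bowtie2 2.2.6, MACS2 2.1.1 and ChIPseeker on hg38, along with Trimmomatic 0.35, cutadapt 1.9.1 and FastQC. Use of the inputs as control and treatment of duplicate and multiply mapped reads are not given in the sources used here. The deposited lists hold for every region a score, the summit's position and the fold, a ratio of pileup to background with 1 added to both. The deposited lists also hold −log10 values of p and of q (lowest −log10 q 1.30), as the authors' peak caller wrote them. Gene spans came from RefSeq (GRCh38.p14), and strands from its promoter table. Coordinates are 1-based on hg38. Overlap meant at least 1 bp, and "near" a start within 1 kb. Pileups were solved from fold and p by the Poisson upper tail, to within 0.1% of the −log10 p, with scipy 1.17.1 (Python 3.11.15). This was tested on simulated data. There was no test between conditions. The genes, gene lists, motifs and alternatives were chosen with earlier results of these data known. All 10 genes are named with every region, or the strongest, shared and start-nearest where there were more than 5. From the other lists the 3 strongest in shNIT2 and all found in shNT alone are named, and genes beyond these were named after their values were seen.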

Additional observations from a re-analysis of the deposited data

How the results depend on the processing

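Main counts were set against 8 alternatives, and of 72 values 38 stayed within 1.5 times and 34 moved. With no extension of the gene span, 2 members had a region in shNT and in both lists (26.8% and 17.6% of all genes), CEACAM regions numbered 4 in shNIT2 and 0 in shNT, gel mucin regions 1 in shNIT2, and membrane mucin regions 4 and 2. With 1 kb, 3 members had a region in shNT and in both lists (28.5% and 19.6%), with 6 and 1 CEACAM, 2 gel mucin (shNIT2) and 2 membrane mucin (shNT) regions. With 50 kb there were 8 gel mucin regions in shNIT2 and 18 and 11 membrane mucin regions. At −log10 q of at least 5, 3 members had a region in shNT and in both lists (8.13% and 6.42%), with 3 gel mucin (shNIT2) and 1 membrane mucin (shNT) regions. At a fold of at least 5 there were 9 CEACAM, 3 gel and 5 membrane mucin regions in shNIT2 and 3 membrane mucin regions in shNT. Among the 10000 strongest of each list, 3 members had a region in shNT and in both lists (4.31% and 3.37%), with 10 CEACAM, 2 gel and 5 membrane mucin regions in shNIT2 and 1 membrane mucin region in shNT. With shNIT2 scaled to the depth of shNT, 5 members had a region in shNIT2 (20.6% of all genes) and 4 in both lists (13%), with 8 CEACAM, 1 gel and 4 membrane mucin regions. The summit rule moved no main count. The gel mucins had 0 regions in shNT under each setting. The same q or fold is not equally strict at unequal depth. No paired analysis was possible because each condition had 1 library, and for the same reason no library could be left out.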

Other observations

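The covered stretch behind CEACAM6 went on past the 10 kb limit toward CEACAM3, a granulocyte receptor gene. Beyond the window, shNIT2 had 6 further regions before CEACAM3, with 19 to 34 fragments and folds of 3.12 to 6.77. The strongest by q, from 41786028 to 41787434, lay 3817 bp outside the window. shNT had 2 there, with 6 fragments (41790141 to 41790423) and 8 (41793874 to 41794196), of which the first overlapped the shNIT2 region 41789248 to 41790371. On the other side of CEACAM5, CEACAM7 had no region in its own window in either list.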
